A study of Saccharomyces cerevisiae with 17 samples.

Results

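Iron uptake and iron sparing genes were examined in the lager brewing yeast strain CB11 during propagation and fermentation in a brewery. The genes were chosen by name, with earlier results of these data known, and are FET3, FTR1, FIT1, FIT2, FIT3, ARN1, ARN2, SIT1, TIS11 and HMX1. All 10 were represented on the array, each by 1 probe set, among 5449 Saccharomyces cerevisiae genes tested. RNA was hybridized to 17 Affymetrix yeast arrays, and the deposited values are RMA expression summaries on the log2 scale, where a difference of 1 is a doubling of signal. Propagation took place in a vessel of 140 hL whose oxygenated wort was held at 7 to 8 mg/L dissolved oxygen, with 3 arrays for each of the times 0, 8 and 30 h. Fermentation took place in a vessel of 3275 hL, with wort oxygenated to 25 mg/L before filling and yeast that earlier fermentations had already used, and was sampled at 8 h (3 arrays), 30 h (2 arrays) and 60 h (3 arrays). All groups carry the same strain, and no genotype or drug treatment separates them. Samples A, B and C of a time came from 1 vessel, so p-values measure the spread between samples of that vessel, and stage, vessel, oxygen supply and yeast history cannot be told apart. Because lager yeast is a hybrid that carries the genome of S. cerevisiae beside that of a related species, a probe set may read messages from both.

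Budding yeast takes up iron by several routes that the transcription factors Aft1 and its paralogue Aft2 switch on when iron is short. In the reductive route, ferric reductases of the Fre family free ferrous iron at the surface, and the multicopper oxidase Fet3 oxidises it for passage through the permease Ftr1. In the other route, the mannoproteins Fit1, Fit2 and Fit3 hold siderophores (iron chelates made by microbes) in the cell wall, and transporters of the Arn family, here Arn1, Arn2 and Sit1, carry the chelates into the cell. Tis11, also called Cth2, binds messages of iron-using proteins and promotes their decay, which spares iron, and the heme oxygenase Hmx1 releases iron from heme. Fet3 needs copper for its activity and molecular oxygen as substrate.

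The arrays were not alike. Across genes, correlations between the propagation 8 h and 30 h arrays were 0.881 to 0.959, and those between the remaining 11 were 0.730 to 0.998. A pair with 1 array from each set gave 0.369 to 0.563. On these 6 arrays the mean signal of the hybridization controls was 12.16 to 12.85, against 4.83 to 10.69 on the others. The 4.83 was array B of propagation 0 h, and the next lowest was 8.71. The median of 13 meiosis and sporulation markers was 6.94 to 8.04 on the 6 arrays and 4.28 to 5.88 elsewhere. Of the 13, 11 were higher at propagation 8 h and 12 at 30 h than at 0 h, with 24.3% and 28.6% of all genes higher. Among the 3 arrays of propagation 0 h, array A differed from B and C with an SD of 1.17 and 1.08 over genes, against 0.370 between B and C. Array A also had the largest excess of 3′ over 5′ control signal, 4.39, with 3.44 and 3.10 on arrays A of fermentation 60 h and 8 h and at most 2.49 elsewhere. Arrays B and C of fermentation 8 h differed with an SD of 0.123. The results therefore lead with the 11 arrays of propagation 0 h and fermentation, and where a call on a gene named here was lost without array A of propagation 0 h, the value without it is given.

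Not every member gave a signal above the background of the array. Background was taken as the 95th percentile of 1746 probe sets for Schizosaccharomyces pombe genes on the same array. FTR1, FIT1, FIT3, ARN1, SIT1 and HMX1 were above it on 17 of 17 arrays. FET3 exceeded it on 14 arrays and TIS11 on 8. FIT2 and ARN2 exceeded it on 0 of 17 arrays, with ranges of 4.22 to 4.98 and 3.53 to 4.23. FIT2 and FIT3 are neighbours on chromosome XV, and the ferric reductase gene FRE5 lies next to FIT3. FRE5 was also above the background on 0 of 17 arrays, while FIT3 between FIT2 and FRE5 was above it on every array.

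**Figure D1:**
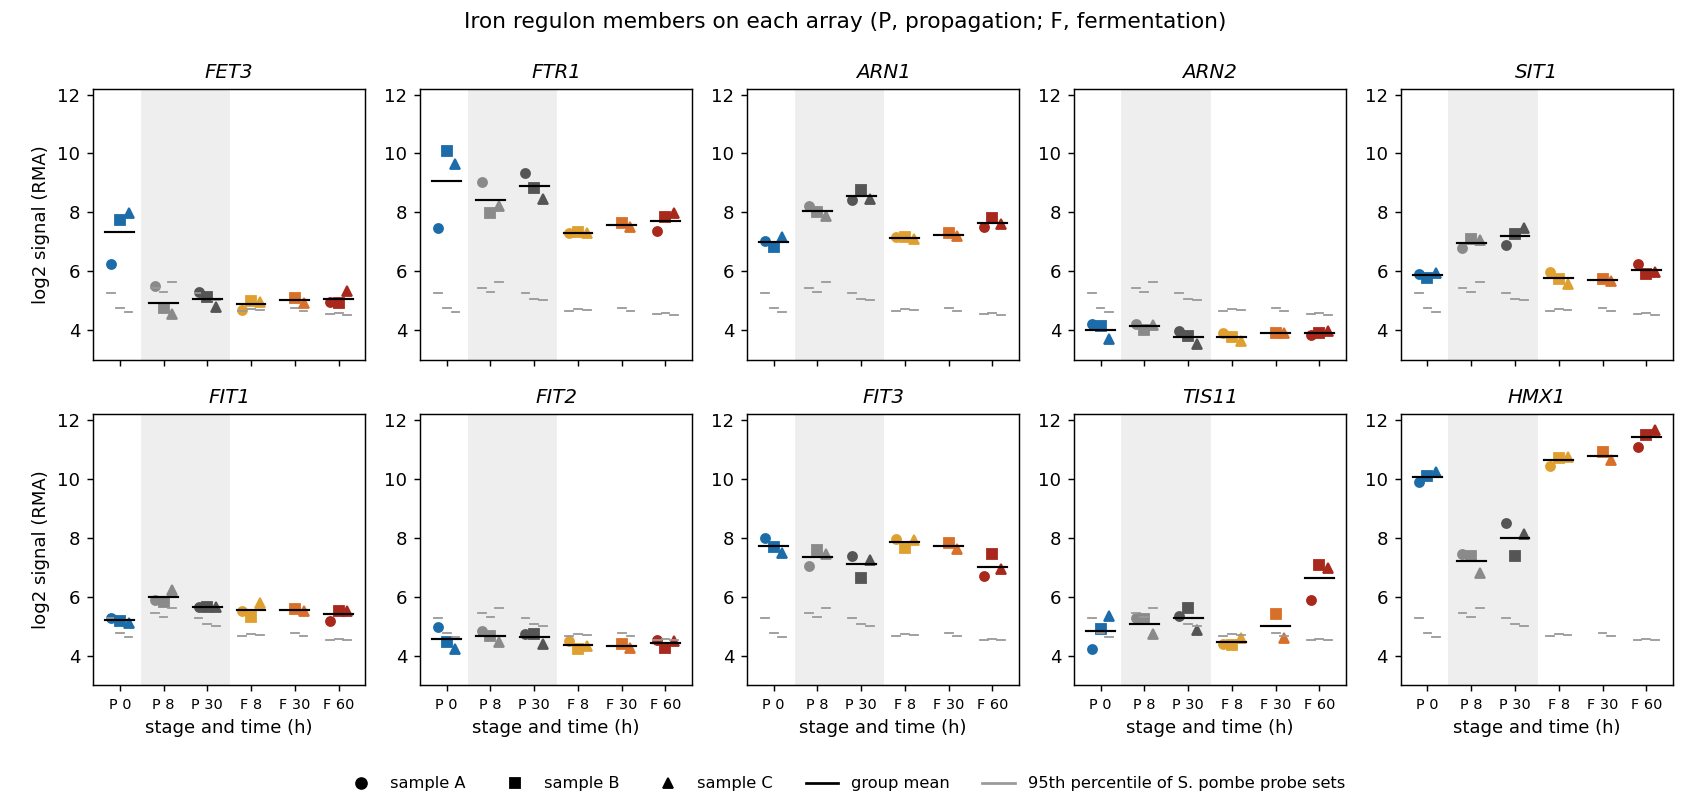
Log2 RMA signal of the 10 members on each of the 17 arrays, by stage and time (P, propagation; F, fermentation), with samples A, B and C as circles, squares and triangles, group means as black bars and the 95th percentile of the S. pombe probe sets of each array as grey ticks. The shaded arrays of propagation 8 h and 30 h are those that stood apart; FET3 is highest at propagation 0 h (6.25 to 7.99), and TIS11 is highest in fermentation 60 h (5.88 to 7.08).

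Of the reductive uptake pair, FET3 was highest at the start of propagation and lower in fermentation, and the decrease of FTR1 depended on the arrays kept. FET3, the surface ferroxidase, gave 6.25, 7.73 and 7.99 on arrays A, B and C of propagation 0 h. In fermentation it gave 4.70, 5.00 and 4.97 at 8 h, 5.10 and 4.94 on arrays B and C of 30 h, and 4.96, 4.91 and 5.34 at 60 h. Every propagation 0 h array lay above every other array of the series, and the fermentation groups overlapped one another. The background of arrays A, B and C was 4.65, 4.73 and 4.70 at fermentation 8 h and 4.54, 4.58 and 4.52 at 60 h. FET3 lay near it on these arrays, so the folds that follow are approximate. FET3 was 5.40-fold lower at fermentation 8 h than at propagation 0 h (log2 change -2.43, SE 0.36, adjusted p = 0.000122) and 4.78-fold lower at fermentation 60 h (log2 change -2.26, SE 0.36, adjusted p = 0.000136). Without array A of propagation 0 h the changes were -2.97 and -2.79. The call held under all 28 alternatives computed for the first comparison and all 28 for the second.

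FTR1, the permease that works with Fet3, gave 7.47, 10.07 and 9.64 on the propagation 0 h arrays. It gave 7.29, 7.33 and 7.30 at fermentation 8 h, 7.64 and 7.49 at 30 h, and 7.36, 7.83 and 7.98 at 60 h. Array A of propagation 0 h lay below B and C and within the range of fermentation 60 h. FTR1 was lower at fermentation 8 h (log2 change -1.75, SE 0.48, adjusted p = 0.0124) and at 60 h (-1.33, SE 0.48, adjusted p = 0.0355). Without array A the changes were -2.54 (adjusted p = 4.08e-06) and -2.13 (adjusted p = 2.01e-05), while without array B they were -1.24 (adjusted p = 0.0642) and -0.83 (adjusted p = 0.184), and without array C -1.46 (adjusted p = 0.0534) and -1.04 (adjusted p = 0.134). The size and the call of the FTR1 decrease depend on which propagation 0 h arrays are kept. With only the arrays of the groups compared, neither call passed (adjusted p = 0.115 at 8 h and 0.168 at 60 h). The 8 h call was lost in 3 of 29 alternatives and the 60 h call in 8 of 29. The 60 h call was also lost without any 1 of the fermentation 60 h arrays, with adjusted p of 0.112, 0.0704 and 0.0527 without A, B and C. The same held in a fit without the propagation 8 h and 30 h arrays (adjusted p = 0.0688) and with all probe sets tested separately (adjusted p = 0.0708). From fermentation 8 h to 60 h FTR1 changed by 0.42 (95% interval -0.60 to 1.43, adjusted p = 0.629), and FET3 by 0.18 (-0.59 to 0.95, adjusted p = 0.798).

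On the propagation 8 h and 30 h arrays FET3 was lower than at propagation 0 h, while the FTR1 call depended on the arrays and the fit. FET3 gave 5.51, 4.75 and 4.54 at 8 h and 5.30, 5.12 and 4.78 at 30 h, below every propagation 0 h array and overlapping fermentation. FTR1 gave 9.03, 7.98 and 8.23 at 8 h and 9.35, 8.83 and 8.47 at 30 h, which overlapped propagation 0 h. FET3 fell by 2.39 and 2.26 (adjusted p = 2.12e-05 and 3.50e-05), and with arrays below the background raised to it FET3 was at least 3.59-fold and 4.52-fold lower. The FTR1 changes of -0.64 and -0.17 did not pass (adjusted p = 0.250 and 0.763). Without array A of propagation 0 h FTR1 passed in both, with changes of -1.44 and -0.97 (adjusted p = 0.000391 and 0.00841). With array weights it passed in both as well (-1.49 and -0.92, adjusted p = 5.43e-05 and 0.00315). With the 3′ minus 5′ signal as a covariate FTR1 passed at 8 h (-1.24, adjusted p = 0.0118). The difference between FET3 and FTR1 was not tested. On the FET3 probe set 1 of 3 arrays at 8 h and 2 of 3 at 30 h exceeded the background. The hybridization controls and meiosis markers differed between these arrays and the others as given above, and their part in the result was not tested.

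**Figure D2:**
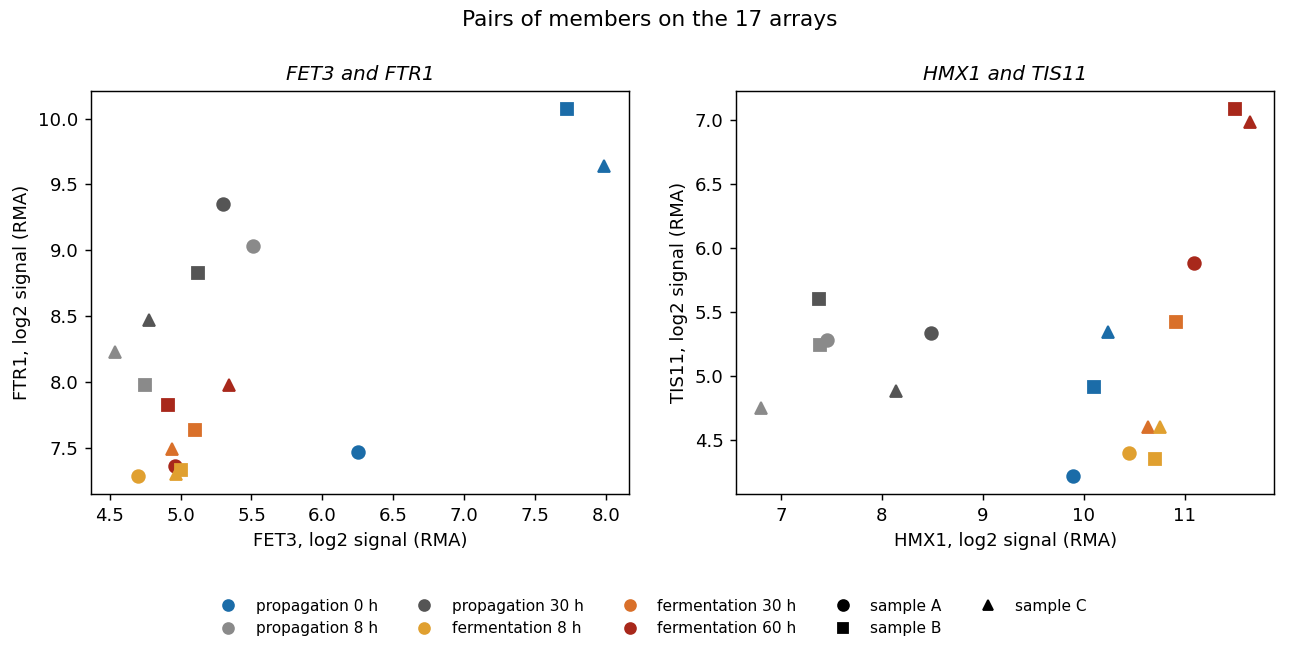
Log2 RMA signal of FTR1 against FET3 (left) and of TIS11 against HMX1 (right) on the 17 arrays, coloured by group, with shapes for samples A, B and C. Arrays B and C of propagation 0 h lie at the upper right for FET3 and FTR1 and array A lies far below them in FTR1 (7.47 against 10.07 and 9.64); the fermentation 60 h arrays lie at the upper right for HMX1 and TIS11.

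In the siderophore route, ARN1 passed in 1 comparison among the 11 arrays of propagation 0 h and fermentation, and SIT1 and ARN2 in none. ARN1, a transporter of ferrichrome-type siderophores, gave 7.03, 6.83 and 7.16 at propagation 0 h, 7.15, 7.18 and 7.10 at fermentation 8 h, 7.29 and 7.21 at 30 h, and 7.51, 7.82 and 7.62 at 60 h. The 60 h arrays lay above all the others of these 11. ARN1 was 1.56-fold higher at fermentation 60 h than at propagation 0 h (log2 change 0.64, SE 0.19, adjusted p = 0.0146). The call was lost when arrays were recentred on the median of the tested genes (0.48, adjusted p = 0.0613) or quantile normalized (0.48, adjusted p = 0.0712). It was also lost with only the arrays of the groups compared (0.64, adjusted p = 0.0922), and without array B of either group (0.56 in both, adjusted p = 0.0629 and 0.0715). Between fermentation 8 h and 60 h the change was 0.51 (95% interval 0.10 to 0.92, adjusted p = 0.0889).

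SIT1, also called ARN3, transports ferrioxamine and related siderophores. It gave 5.90, 5.78 and 5.95 at propagation 0 h and 5.97, 5.75 and 5.58 at fermentation 8 h. It gave 5.75 and 5.67 at fermentation 30 h and 6.25, 5.92 and 5.97 at 60 h. Fermentation 30 h lay below propagation 0 h and fermentation 60 h, and the other pairs of these groups overlapped. No SIT1 comparison among them passed, with changes of -0.11 to 0.34. On the propagation 8 h and 30 h arrays both transporters were higher than at 0 h. ARN1 was 2.04-fold higher at 8 h (log2 change 1.03, adjusted p = 0.000184) and 2.90-fold at 30 h (1.53, adjusted p = 2.81e-06). SIT1 was 2.14-fold higher at 8 h (1.10, adjusted p = 0.000201) and 2.53-fold at 30 h (1.34, adjusted p = 2.63e-05). The groups did not overlap for either gene, and the median change of all genes was -0.44 at 8 h and -0.25 at 30 h. ARN2, which encodes a transporter of triacetylfusarinine-type siderophores, passed in none of the comparisons.

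Of the 3 cell wall mannoprotein genes, FIT3 was lower late in fermentation. FIT3 gave 8.00, 7.70 and 7.48 at propagation 0 h, 7.95, 7.66 and 7.92 at fermentation 8 h, 7.81 and 7.61 at 30 h, and 6.69, 7.44 and 6.93 at 60 h. The 60 h arrays lay below the others of these 11. FIT3 was 1.77-fold lower at fermentation 60 h than at 8 h (log2 change -0.83, SE 0.26, adjusted p = 0.0406) and 1.63-fold lower than at propagation 0 h (-0.71, adjusted p = 0.0396). The first call was lost in 9 of 29 alternatives and the second in 10 of 29. Without array A of fermentation 60 h the changes were -0.66 (adjusted p = 0.158) and -0.54 (adjusted p = 0.152), and without the 3 arrays of highest 3′ excess they were -0.61 (adjusted p = 0.139) and -0.40 (adjusted p = 0.256). The second was -0.57 without array A of propagation 0 h (adjusted p = 0.0889). On the arrays that stood apart FIT3 gave 7.03, 7.59 and 7.45 at propagation 8 h and 7.39, 6.64 and 7.25 at 30 h. It was lower at propagation 30 h than at 0 h (-0.63, adjusted p = 0.0416), a call lost in 13 of 28 alternatives, among them leaving out array A of propagation 0 h (-0.49, adjusted p = 0.107). FIT1 ranged from 5.12 to 6.22 over the series and passed in 1 comparison, from propagation 0 h (5.29, 5.18 and 5.12) to 8 h (5.90, 5.81 and 6.22), with a change of 0.78 (adjusted p = 0.00271). FIT1 lay near the background, which was 5.27, 4.77 and 4.63 on arrays A, B and C of propagation 0 h. At propagation 8 h the background was higher too, at 5.45, 5.30 and 5.63. How much of the FIT1 change reflects the background was not tested. FIT1 passed at 30 h as well without array A of propagation 0 h (0.49, adjusted p = 0.0424). FIT2 passed in none.

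The iron sparing genes TIS11 and HMX1 were highest late in fermentation. TIS11 gave 4.40, 4.35 and 4.60 at fermentation 8 h, 5.42 and 4.60 at 30 h, and 5.88, 7.08 and 6.98 at 60 h. At propagation 0 h it gave 4.22, 4.91 and 5.34. Every 60 h array lay above every other array of the series, and 0 of 3 arrays at fermentation 8 h exceeded the background. With the 8 h arrays raised to the background, TIS11 was at least 3.88-fold higher at fermentation 60 h than at 8 h (fitted log2 change 2.20, SE 0.35, adjusted p = 0.000456), a call that held in all 28 alternatives. Treated in the same way, it was at least 2.77-fold higher than at propagation 0 h, where 2 of 3 arrays exceeded the background (1.82, SE 0.35, adjusted p = 0.000602), also in all 28. At fermentation 30 h 1 of 2 arrays exceeded it. The rise from 30 h to 60 h of 1.64 (adjusted p = 0.0235) was lost without array C of fermentation 30 h (1.23, adjusted p = 0.459), without array B (1.42, adjusted p = 0.106) or C (1.47, adjusted p = 0.0722) of 60 h, and in a fit without the propagation 8 h and 30 h arrays (adjusted p = 0.0652).

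HMX1 gave 9.89, 10.10 and 10.24 at propagation 0 h, 10.45, 10.70 and 10.75 at fermentation 8 h, 10.91 and 10.63 at 30 h, and 11.09, 11.50 and 11.64 at 60 h. The 60 h arrays lay above all others, and fermentation 8 h and 30 h overlapped. HMX1 was 2.51-fold higher at fermentation 60 h than at propagation 0 h (log2 change 1.33, SE 0.28, adjusted p = 0.00125). The change from fermentation 8 h to 60 h was 0.77 (95% interval 0.19 to 1.36) and did not pass (adjusted p = 0.0689), though it did in a fit without the propagation 8 h and 30 h arrays (adjusted p = 0.0334). On the propagation arrays HMX1 gave 7.46, 7.39 and 6.80 at 8 h and 8.49, 7.38 and 8.14 at 30 h, below every other array. It was 7.28-fold lower at 8 h than at 0 h (-2.86, adjusted p = 1.58e-07) and 4.21-fold lower at 30 h (-2.08, adjusted p = 4.97e-06). Among the 10 members HMX1 had the widest range over the 17 arrays, 4.84 log2 units.

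**Figure D3:**
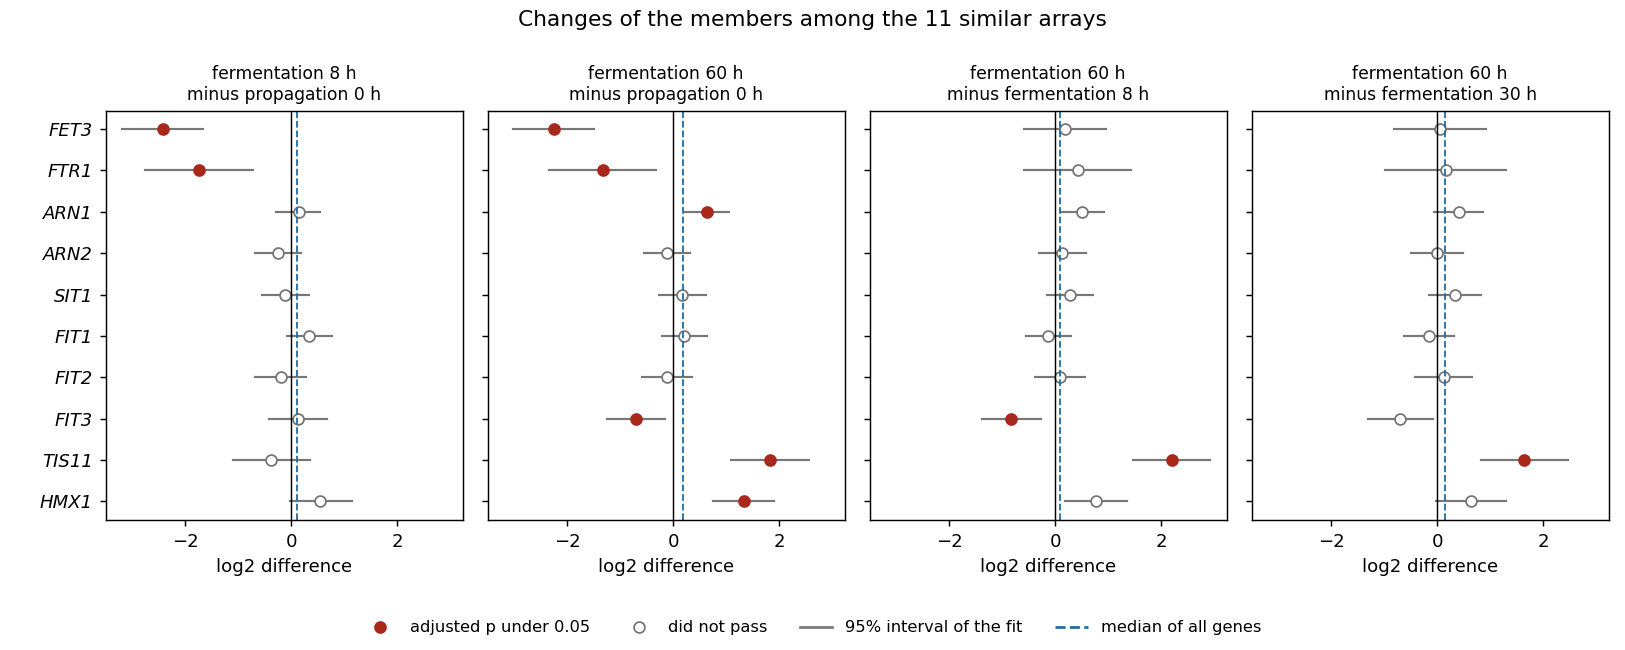
Log2 differences of the 10 members in 4 comparisons among the 11 arrays of propagation 0 h and fermentation, with 95% intervals of the limma fit; filled points passed at an adjusted p under 0.05 and the dashed line is the median of all genes. FET3 and FTR1 lie to the left in both comparisons with propagation 0 h, and TIS11 lies to the right in the 3 comparisons of fermentation 60 h.

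Counts of members that passed were read against the share of all genes that passed in the same comparison. From propagation 0 h to fermentation 8 h 2 of 10 members fell and 0 rose, with 28.1% of all genes passing (16.5% higher and 11.5% lower) and a member median of -0.16 against 0.10 over all genes. From propagation 0 h to fermentation 60 h 3 rose (TIS11, HMX1 and ARN1) and 3 fell (FET3, FTR1 and FIT3), with 41.0% of all genes passing (25.3% higher and 15.7% lower). The members moved in both directions, and their median of 0.03 was near that of all genes, 0.18. From fermentation 8 h to 60 h TIS11 rose and FIT3 fell, with 15.9% of all genes passing (9.21% higher and 6.64% lower). Without array A of propagation 0 h, which that comparison uses only for its estimate of spread, ARN1 (adjusted p = 0.0462) and HMX1 (adjusted p = 0.0364) passed too. Over all genes 1484 passed in that fit, against 864 with every array kept. From 30 h to 60 h TIS11 was the 1 member that passed, with 4.31% of all genes (2.84% higher and 1.47% lower). From 8 h to 30 h of fermentation 0 members and 0% of all genes passed in limma, where 189 genes had an unadjusted p under 0.05, and member changes ran from -0.13 to 0.56.

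In the comparisons with the arrays that stood apart, most genes of the array passed. From propagation 0 h to 8 h 3 members rose (FIT1, ARN1 and SIT1) and 2 fell (FET3 and HMX1), with 67.4% of all genes passing (24.3% higher and 43.1% lower). From 0 h to 30 h 2 rose (ARN1 and SIT1) and 3 fell (FET3, HMX1 and FIT3), with 67.3% (28.6% higher and 38.7% lower). Near these shares, the counts say nothing particular about the members. From propagation 8 h to 30 h 0 members passed (5.01% of all genes). HMX1 was higher at fermentation 8 h than at propagation 8 h, 10.7-fold, and ARN1, SIT1 and FTR1 were lower, with 69.2% of all genes passing (44.7% higher and 24.4% lower). The same 4 genes passed in the same directions between fermentation 30 h and propagation 30 h (65.4% of all genes, 37.5% higher and 27.9% lower), where HMX1 was 6.79-fold higher. The FTR1 call at 8 h (-1.11, adjusted p = 0.0498) was lost in 16 of 28 alternatives, among them leaving out array A of propagation 8 h (-0.80, adjusted p = 0.197) and sample letter as a block (adjusted p = 0.0544). The FTR1 call at 30 h (-1.32, adjusted p = 0.0405) was lost in 5 of 28, among them leaving out array A of propagation 30 h (-1.08, adjusted p = 0.127) or either array of fermentation 30 h (adjusted p = 0.107 and 0.149). The change from 8 h to 30 h differed between the stages for 0 members, and 0.275% of all genes passed that test.

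Of 7 regulators and sensors, 0 passed from propagation 0 h to fermentation 8 h, where 28.1% of all genes did, and 2 rose from fermentation 8 h to 60 h, where 9.21% of all genes rose. These were AFT2 (log2 change 1.00, adjusted p = 0.0272) and GRX4 (1.39, adjusted p = 0.0100), a glutaredoxin that binds an iron-sulfur cluster and inhibits Aft1. The AFT2 call was lost in 7 of 28 alternatives and the GRX4 call in 2 of 29. AFT1 itself averaged 7.43 ± 0.23 (SD, n = 3) at propagation 0 h and 7.40 ± 0.11 (SD, n = 3) at fermentation 60 h. Among 10 other genes of iron acquisition and copper supply to Fet3, FRE1 and FRE4 fell and FET4 rose from propagation 0 h to fermentation 8 h, 3 of 10 against 28.1% of all genes. FRE1, the main surface ferric and cupric reductase gene, averaged 7.39 ± 0.51 at propagation 0 h (SD, n = 3), 5.73 ± 0.37 at fermentation 8 h (SD, n = 3) and 6.98 ± 0.33 at 60 h (SD, n = 3). It fell where FET3 did (-1.66, adjusted p = 0.000560) and, unlike FET3, rose again from 8 h to 60 h (1.25, adjusted p = 0.00891). The call of that rise was lost in 2 of 28 alternatives, and the difference between the genes was not tested. FET4, the low-affinity ferrous transporter gene, was 1.15 higher at fermentation 8 h (adjusted p = 0.0294). Without array A of propagation 0 h the changes of FET4 (0.60, adjusted p = 0.0994) and FRE4 (-0.67, adjusted p = 0.0525) did not pass, so that FRE1 alone of the 10 did.

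Among genes that move iron between compartments, SMF3 fell at both steps. SMF3, whose product exports iron from the vacuole, averaged 8.71 ± 0.17 at propagation 0 h, 7.15 ± 0.06 at fermentation 8 h and 6.48 ± 0.14 at 60 h (SD, n = 3 each). It fell by 1.55 from propagation 0 h to fermentation 8 h (adjusted p = 3.74e-05) and by a further 0.67 to 60 h (log2 change -0.67, adjusted p = 0.0340), where the call was lost in 6 of 29 alternatives. At 60 h the mitochondrial iron carrier gene MRS3 was also lower than at propagation 0 h (-1.52, adjusted p = 0.00577), and CCC1, which imports iron into the vacuole, was higher (1.22, adjusted p = 0.00335). Of the 6 genes in this list 1 rose and 2 fell in that comparison, near the share of all genes (25.3% higher and 15.7% lower). From propagation 0 h to fermentation 8 h 1 of the 6 passed, against 28.1% of all genes. That count depended on array A of propagation 0 h. Without this array SMF3 still fell (-1.65, adjusted p = 7.48e-06).

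The next list held 16 genes of iron-using proteins or of messages that Tis11 or its paralogue Cth1 are known to bind, with CTH1 itself among them. Of the 16, 7 rose and 0 fell from propagation 0 h to fermentation 8 h, against 16.5% and 11.5% of all genes, with a median of 0.94 against 0.10. When array A of propagation 0 h was left out, fewer rose and 1 fell. The call of SDH1 was among those lost (0.77, adjusted p = 0.122). At 60 h 9 were higher than at propagation 0 h and 0 lower, against 25.3% and 15.7%, with a median of 1.04 against 0.18. Without array A of propagation 0 h fewer were higher, and the call of SDH2 was among those lost (0.90, adjusted p = 0.0749). The shares of all genes given for both comparisons are those with every array kept. Whether the list differs from all genes without array A is therefore not shown. From fermentation 8 h to 60 h, when TIS11 rose, 0 of 16 passed in either direction (15.9% of all genes did) and their median was 0.27 against 0.08. BIO2 (biotin synthase) rose by 1.75 (adjusted p = 0.000308), HEM15 (ferrochelatase) by 1.67 (adjusted p = 4.00e-05) and ACO1 (aconitase) by 1.42 (adjusted p = 0.00977) from propagation 0 h to fermentation 8 h. Of 20 iron-sulfur cluster assembly genes 5 rose in that comparison and 1 fell, the scaffold gene ISU2 (-1.78, adjusted p = 0.000134). These 6 of 20 lie near the share of all genes, 28.1%. Of 8 copper genes measured 1 passed from propagation 0 h to fermentation 8 h. This was the metallothionein gene CUP1-1, whose probe set is shared with similar sequences (-1.39, adjusted p = 0.00147). Of 4 biotin genes 1 passed in that comparison, the transporter gene VHT1 (-0.83, adjusted p = 0.0193), a call lost in 7 of 29 alternatives. Neither count exceeds the share of all genes, 28.1%.

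**Figure D4:**
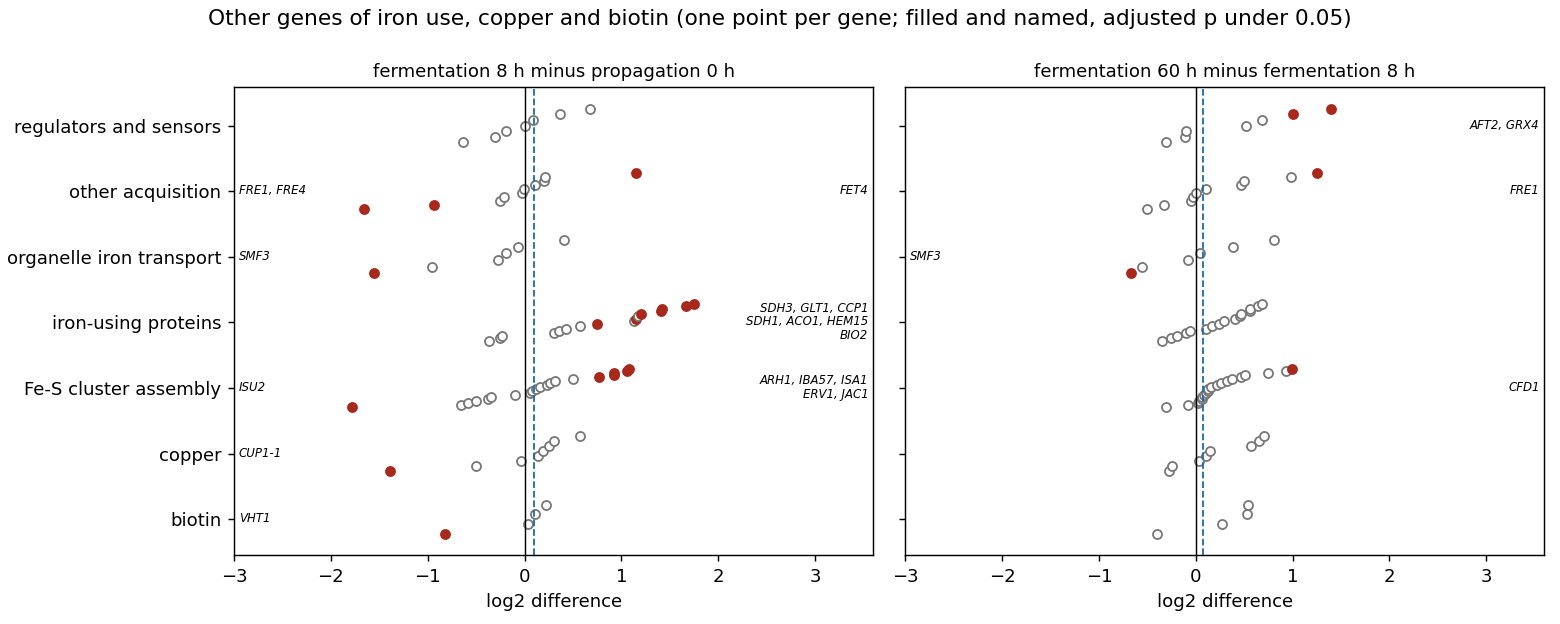
Log2 differences of the other iron, copper and biotin genes, 1 point a gene, from propagation 0 h to fermentation 8 h (left) and from fermentation 8 h to 60 h (right); filled points passed at an adjusted p under 0.05, with their names at the sides, and the dashed line is the median of all genes. In the left panel 7 of 16 genes in the list of iron-using proteins and Tis11 or Cth1 targets passed, all to the right. In the right panel 0 of them passed.

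The genes whose pattern was most like a member's were named by Pearson correlation over the 11 arrays of propagation 0 h and fermentation, which share 1 strain and include the 3 arrays of low 5′ signal. For FET3 these were LSG1 (r = 0.989), RRP15 (0.982) and MRD1 (0.981), which act in ribosome assembly or ribosomal RNA processing. Over all 17 arrays the same correlations were 0.960, 0.656 and 0.789. LSG1 averaged 10.29 ± 0.54 at propagation 0 h (SD, n = 3) and 8.33 ± 0.09 at fermentation 8 h (SD, n = 3). For FTR1 they were SRM1 (0.988), MEU1 (0.984) and PRS5 (0.983), and over 17 arrays 0.087, 0.369 and 0.886. For TIS11 they were SRO77 (0.979), YKL222C (0.974) and ATG22 (0.960), and for HMX1 YHR033W (0.980), ECM21 (0.979) and OTU1 (0.977). Over 17 arrays the 6 correlations for TIS11 and HMX1 lay between 0.355 and 0.651.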

How the data were processed

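The deposited log2 values are RMA expression summaries, per the submitters' processing notes; which arrays were normalized together is not given in the sources used here. Of 10928 probe sets, 5498 were matched to an S. cerevisiae gene through Entrez identifiers of RefSeq assembly R64. A gene with several sets (47 genes) was represented by the one of highest mean, which left 5449 genes with no filter on low signal. The members and lists were chosen with earlier results of these data known. All 17 arrays entered 1 limma 3.58.1 model (R 4.3.3, lmFit and eBayes) with group means as its coefficients. The 11 two-sided contrasts were each adjusted by Benjamini-Hochberg over 5449 genes, and genes passed at an adjusted p under 0.05. Intervals are 95% intervals of the fit. All 10 members were tested in every comparison. Lower bounds of a fold raise each dim array to its background; these, and the alternatives for the wider lists, were added after the data were seen. From each wider list the genes named were among the 4 largest changes that passed in the comparisons of fermentation 8 h and 60 h with propagation 0 h and with each other; AFT1 and FRE5 were named after their values were seen. The 3 genes of highest correlation were named per member described. The procedure was tested on simulated data with independent noise of equal size on every array. The simulation lacks the differences in quality and likeness between these arrays, so it does not bear on them. The number of arrays limits precision. The letters A, B and C were not used to pair arrays in the main model. After removal of group means 14 of 40 same-letter pairs correlated over 0.1 (-0.152 to 0.777). Pairs of different letters were not computed, so whether the letters pair arrays was not settled. Titles of fermentation 8 h and 30 h carry a suffix whose meaning the labels do not give, so a batch behind it cannot be told apart from those groups.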

Additional observations from a re-analysis of the deposited data

How the results depend on the processing

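The decrease of FET3 from propagation 0 h and the increase of TIS11 at fermentation 60 h over 8 h and over propagation 0 h held under every alternative that tested these genes, which leaves out the filter on dim genes. Counts of members passing moved more; counts in brackets are those over all genes. From propagation 0 h to fermentation 8 h the 2 members (1529) became 1 without the dimmest 25% of genes (1304), 1 with only the arrays compared (833) and 4 with array weights (3184), and 1 to 2 leaving out single arrays. To fermentation 60 h the 6 (2236) became 3 with only the arrays compared (1299) and 3 to 6 leaving out single arrays. From fermentation 8 h to 60 h the 2 (864) became 1 without dim genes (725), 4 with only the arrays compared (1609), 6 with weights (3606), 1 with arrays B and C of 8 h averaged (440), 1 without the 3 arrays of low 5′ signal (1189) and 1 to 4 leaving out single arrays. From 30 h to 60 h the 1 (235) became 0 without dim genes (197), 0 after quantile normalization (141), 0 without the propagation 8 h and 30 h arrays (143), 3 with weights (2025) and 0 to 1 leaving out single arrays. Without dim genes the 5 of propagation 8 h against 0 h (3673) became 2 (2816), and the 5 of 30 h against 0 h (3669) became 3 (2801); leaving out single arrays gave 5 to 6 and 4 to 6. Propagation 30 h against 8 h went from 0 (273) to 1 without the 3 arrays of low 5′ signal (914), and 0 to 1 leaving out single arrays. Fermentation 8 h against propagation 8 h went from 4 (3770) to 8 after recentring (3741) and 7 with weights (4313); leaving out single arrays gave 3 to 5, as for fermentation 30 h against propagation 30 h. The dim filter removes 6 of the 10 members, FET3 and TIS11 among them; the cause of the other shifts was not tested. FIT2 in propagation 30 h against 0 h reversed to -0.58 after quantile normalization (adjusted p = 0.0173), with signal at background. The replicate block changed 1 member call, FTR1 in fermentation 8 h against propagation 8 h (-1.11, adjusted p = 0.0544).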
